A study of Mus musculus with 6 samples.

Results

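The spliceosome and its regulators were followed in CD8+ T cells at the effector stage of an infection, through 67 of the 13675 genes in the deposited table. A gene was taken when its Ensembl ID matched a mouse symbol that began with Hnrnp, Sf3a, Sf3b, Snrp or U2af, or that read Srsf or Prpf followed by a number, and when it was not a pseudogene. The 67 genes were 11 Snrp, 3 U2af, 3 Sf3a, 6 Sf3b, 13 Prpf, 11 Srsf and 20 Hnrnp genes, all annotated as protein-coding. Of the symbols that fit in the GENCODE M21 annotation, only Snrpn was not analysed here, and 1 pseudogene, Snrpert, was set aside.

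The spliceosome removes introns from pre-mRNA. Small nuclear RNAs, most of them bound by a ring of Sm proteins (encoded by part of the Snrp genes), recognise the ends of the intron. U2AF and the SF3A and SF3B complexes fix the branch site and the 3′ splice site, and PRPF proteins carry the complex through assembly and catalysis. SR proteins (Srsf genes) and hnRNP proteins bind the pre-mRNA and often act in opposite directions on the choice of exons. In T cells, activation and differentiation are accompanied by changes in exon use, the best known being that of the CD45 gene Ptprc, which hnRNP L and hnRNP LL regulate.

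The cells were CD45.2 OT-I cells, whose transgenic T cell receptor recognises an ovalbumin peptide. The control group had the label CK2αfl/fl, a CK2α gene flanked by loxP sites, and the knockout group had the label CK2αfl/fldLck-Cre, in which Cre is driven by the distal promoter of Lck, a promoter active in T cells. Each kind was moved into its own CD45.1 B6 hosts, which received Listeria monocytogenes carrying ovalbumin, and the CD45.2 CD8+ cells were taken from the spleen on day 7. There were 3 libraries per group, and no age, sex or pooling of animals is given in the labels. Whether each library is a separate animal is not said, and a p-value then measures only the spread among these 6 libraries, which may be technical.

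The targeted gene did not check the labels. Csnk2a1, which encodes CK2α, measured 1665, 1847 and 1645 normalized counts in controls 1, 2 and 3 against 2828, 2875 and 2786 under the knockout label, so all directions here are those of the labels. The counts cover the whole gene and so include any exons that Cre leaves in place. Depth over the listed genes was 14746864 to 22931296 reads per library. For 5 CD8+ T cell markers the summed normalized counts were 88448, 80977 and 89484 in controls 1, 2 and 3. Under the knockout label they were 82163, 79631 and 77162, and the groups overlapped. The summed level of 13 B cell markers was 3674 to 4299 in the controls, but 5934, 8915 and 8248 in the knockout-labelled libraries in order of number, with no marker at 0. The median B cell marker stood 0.13 below the control mean on the log2 scale in knockout-labelled library 1, but 2.36 and 2.31 above it in libraries 2 and 3. Unlike the median marker, Cd22 and Ighm were higher in all 3 knockout-labelled libraries. Cd22 measured 328, 320 and 302 in the controls against 734, 1090 and 1045. Ighm measured 2883, 3518 and 2903 against 4784, 5325 and 4931. In bulk RNA, fewer cells of a type and less RNA per cell cannot be told apart.

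None of the 67 genes passed the test between the groups. With limma and Benjamini-Hochberg adjustment over 13654 tested genes, 0 members were called at an adjusted p below 0.05, where 5.19% of all tested genes were called (2.04% higher and 3.15% lower). At an unadjusted p below 0.05 there were 6 members, or 8.96% of them, against 21.4% of all tested genes. Above the controls were 4 of these (background 10.2%) and below them 2 (background 11.2%). This contrast depended on the scaling, on the B cell covariate and on control-labelled library 2. Quantile normalization gave 17 members (25.4%, 16 of them above) against 21.4% of all tested genes, but TMM factors gave 7 (10.4%) against 21.6%. The B cell marker level as a covariate, a fit that rests mainly on knockout-labelled library 1, gave 15 (22.4%, 14 above) against 18.6%. Without control-labelled library 2 there were 19 (28.4%, 16 above) against 29.5%. edgeR on the recovered reads also called 0, where it called 4.72% of all tested genes, and DESeq2 called 1, Snrpd1, where it called 7.49% of all tested genes (2.91% higher and 4.58% lower). Of the 67, 12 had groups that did not overlap (8 higher, 4 lower), or 17.9%, against 25.7% of all tested genes (12% higher, 13.8% lower).

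The differences were small, and for most members the data bound them closely. The 95% interval of the fold change stayed within 1.5-fold in either direction for 63 of the 67 genes. Among the 64 members whose mean level reached 500 normalized counts this share was 98.4%, and among the 6212 tested genes with such a mean it was 92.3%. The intervals that reached 1.5-fold were those of Snrpd1 and of the least abundant members, Prpf40b, Srsf12 and U2af1l4. The median size of a difference was 0.09 on the log2 scale, against 0.16 over all tested genes and 0.11 over tested genes with a mean of at least 500. The log2 fold change was positive for 45 of the 67 members (67.2%) and for 51.3% of all tested genes, with a median of 0.07 against 0.01. Among tested genes with a mean of at least 500, 44.4% were positive, with a median of -0.02. Among the 64 members at that level 67.2% were, with a median of 0.07. The members' median was 0.040 without knockout-labelled library 1, 0.041 without control 1 and 0.105 without control 2. With quantile normalization 53 were positive, and with TMM factors 47. The plot of log2 fold changes by family shows these estimates.

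**Figure D1:**
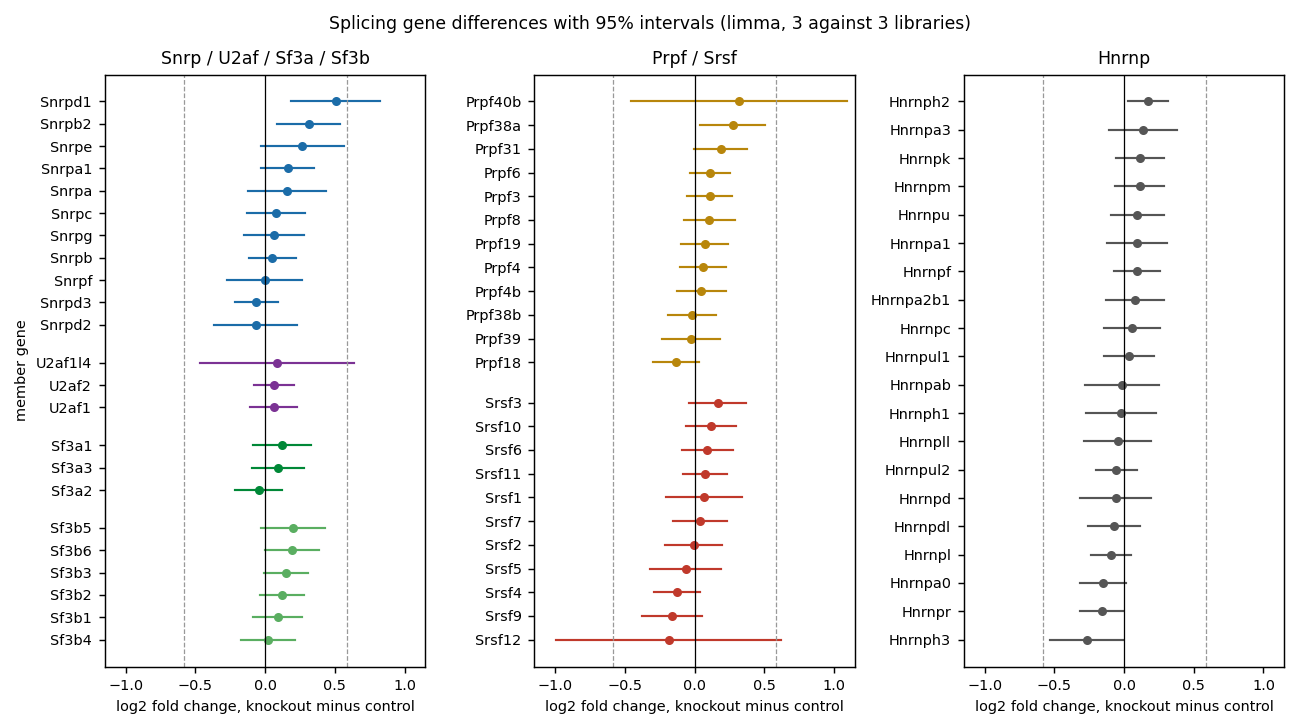
Log2 fold change (knockout-labelled minus control-labelled libraries, x axis) of 66 of the 67 members (y axis), with points for the limma estimate, bars for its 95% interval and dashed lines at 1.5-fold. Snrpd1, at 0.51, lies farthest from 0, and 62 of the 66 intervals stay between the dashed lines.

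Snrp genes encode the Sm ring (Snrpb, Snrpd1, Snrpd2, Snrpd3, Snrpe, Snrpf and Snrpg) and proteins particular to the U1 particle (Snrpa, Snrpc) or the U2 particle (Snrpa1, Snrpb2). The furthest of all members from 0 was Snrpd1, which encodes the Sm D1 protein (GRCm38 chromosome 18, 10617775 to 10642079). Controls 1, 2 and 3 had 461, 673 and 474 normalized counts, against 841, 703 and 713 for the knockout-labelled libraries. All 3 knockout-labelled libraries lay above the controls, but control-labelled library 2 lay much nearer to them than the other controls did. The means were 536 ± 119 and 753 ± 77.1 (SD, n = 3 each), 1.42-fold, with a log2 fold change of 0.51 (SE 0.14, 95% interval 0.19 to 0.82; limma, adjusted p = 0.073). DESeq2 gave an adjusted p of 0.0173.

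Snrpb2 encodes the U2B″ protein, which binds U2 small nuclear RNA (chromosome 2, 143063039 to 143072853). Its level was 932, 1165 and 926 normalized counts in the controls, against 1302, 1152 and 1283 under the knockout label. The groups overlapped by 1 library, as control-labelled library 2 lay above knockout-labelled library 2. The log2 fold change was 0.31 (SE 0.10; limma, adjusted p = 0.111). Snrpe, another Sm ring gene (chromosome 1, 133603871 to 133610291), measured 1040.5, 1410.1 and 1149.8 in the controls and 1726, 1278 and 1329 in the knockout-labelled libraries. Its groups overlapped in the same control library, and the log2 fold change was 0.27 (SE 0.13; limma, adjusted p = 0.288). Snrpert, the pseudogene set aside, is a copy with a Snrpe-derived name that measured 129 to 160.3 normalized counts, and reads may have been divided between it and Snrpe.

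The remaining genes of the Sm ring had estimates nearer to 0, and their difference from Snrpd1 was not tested. Snrpd2 measured 1259, 1682 and 1391 in the controls and 1126, 1573 and 1440.3 in the knockout-labelled libraries (log2 fold change -0.07, 95% interval -0.37 to 0.23), with the lowest value of all in knockout-labelled library 1, where Snrpd1 and Snrpe were highest. Its log2 fold change was -0.31 with the B cell marker level as a covariate and -0.35 without knockout-labelled libraries 2 and 3. Both of these fits rest mainly on knockout-labelled library 1. Without control 2 the log2 fold change of Snrpd2 was 0.05. Snrpd3 had a log2 fold change of -0.06, Snrpf of -0.0033, Snrpb of 0.05 and Snrpg of 0.06. Of the particle-specific genes, Snrpa1 measured 772, 757 and 711 against 906, 829 and 774, groups that did not overlap (log2 fold change 0.16, limma, adjusted p = 0.31). Snrpa and Snrpc, both of the U1 particle, had log2 fold changes of 0.16 and 0.08.

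Snrpb2 had the smallest unadjusted p (limma) after Snrpd1 among members with a positive log2 fold change, although its groups overlapped. Hnrnpr had the smallest among members with a negative log2 fold change. The bases before the start sites of these members are shown. They are the 150 bases before the RefSeq start (GRCm38.p6, plus strand), at chr2:143062919-143063068 for Snrpb2, of which the last 30 lie in a GENCODE exon of the gene, and at chr4:136310792-136310941 for Hnrnpr. Capitals mark the letters of an ETS core, CCGGAAG or CTTCCGG, which Snrpb2 holds in 2 places, and of a CCAAT box, CCAAT or ATTGG, which Hnrnpr holds in 4. The 2 ETS cores of Snrpb2 lie within the 30 bases of the GENCODE exon, not before it.
Snrpb2: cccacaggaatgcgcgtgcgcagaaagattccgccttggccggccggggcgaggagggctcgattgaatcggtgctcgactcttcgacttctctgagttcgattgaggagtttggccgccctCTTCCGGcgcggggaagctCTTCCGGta
Hnrnpr: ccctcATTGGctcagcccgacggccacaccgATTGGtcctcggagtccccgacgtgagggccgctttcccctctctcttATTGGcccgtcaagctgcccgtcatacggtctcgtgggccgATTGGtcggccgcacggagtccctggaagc

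Promoters could be matched by symbol for 58 of the 67 members, as windows of 250 bases before to 50 after the RefSeq start. Their median GC content was 60% and their median number of CG dinucleotides was 25, against 60.7% and 21 over the 9867 tested genes with a promoter, and 52.7% and 7 over all 32851 promoters in the table. The ETS core, on either strand, was in 19 of 58 (32.8%), against 19.1% of the tested genes with a promoter and 8.86% of all promoters. By family it was in 3 of 3 Sf3a, 3 of 4 Sf3b, 4 of 9 Snrp, 4 of 11 Srsf, 3 of 11 Prpf, 2 of 18 Hnrnp and 0 of 2 U2af promoters. The CCAAT box was in 48.3% (38.8% and 37.4% in the same backgrounds) and the GC box, GGGCGG or CCGCCC, in 67.2% (64.1% and 35.7%). An E-box, CACGTG, was in 13.8% (9.98% and 7.15%) and a TATA box, TATAAA or TTTATA, in 10.3% (7.07% and 13.6%). Only 9867 of 13632 tested genes had a promoter in the table, too few for that background to stand for all of them.

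U2AF is the pair of proteins that reads the end of the intron, U2af2 its polypyrimidine tract and U2af1 the AG that follows. U2af2 measured 5071, 5458 and 5260.3 normalized counts in the controls and 5454, 5569.7 and 5482 in the knockout-labelled libraries (log2 fold change 0.06, 95% interval -0.08 to 0.21). U2af1 measured 1257, 1265 and 1249 in the controls, an SD of 7.92, and 1406, 1331 and 1205 in the knockout-labelled libraries (log2 fold change 0.06, 95% interval -0.11 to 0.23). The controls were level and the knockout-labelled libraries lay on both sides of them. U2af1l4, a paralogue, was near 100 normalized counts and ranged from 66.4 to 131 with no separation of the groups.

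SF3A and SF3B are parts of the U2 particle that hold the branch site, and all 6 Sf3b genes had a positive log2 fold change, also with TMM factors and quantile normalization, although Sf3b4 turned negative when control 1 was left out (-0.04) and when the first knockout-labelled library was (-0.02). Sf3b1, the branch-site subunit and the most abundant of them, measured 15728, 15400.1 and 15767 in the controls and 18039.7, 15469 and 16463 in the knockout-labelled libraries. Knockout-labelled library 1 stood above the rest, and library 2 lay within the controls (log2 fold change 0.09, 95% interval -0.09 to 0.26). Sf3b3 measured 3671, 4131 and 3938 against 4572, 4191 and 4245, groups that did not overlap (log2 fold change 0.15, SE 0.07; limma, adjusted p = 0.267). Sf3b5 and Sf3b6 had log2 fold changes of 0.20 and 0.19 (limma, adjusted p = 0.301 and 0.243), Sf3b2 of 0.12 and Sf3b4 of 0.02. Sf3a1 (chromosome 11, 4160350 to 4182541) measured 2024, 2622 and 2165 in the controls against 2469, 2426 and 2472 under the knockout label. The highest value of all 6 was that of control-labelled library 2, and the knockout-labelled libraries agreed closely (SD 25.5). Its log2 fold change was 0.12 (SE 0.09; limma, adjusted p = 0.499), and those of Sf3a3 and Sf3a2 were 0.09 and -0.05.

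Among the 13 Prpf genes, 4 had groups that did not overlap, all higher in the knockout-labelled libraries, where 12% of all tested genes were higher without overlap. Of tested genes with a mean of at least 500, 8.66% were. Prpf38a, needed to activate the assembled complex (chromosome 4, 108563172 to 108579336), measured 576, 680.3 and 607 in the controls and 855, 702 and 698 in the knockout-labelled libraries. Library 1 was high, and the other knockout-labelled libraries lay just above control-labelled library 2 (log2 fold change 0.27, SE 0.10; limma, adjusted p = 0.168). The other 3 belong to the U4/U6.U5 tri-snRNP, the particle that carries the catalytic RNAs. Prpf31 measured 747, 806 and 670.4 against 832, 833 and 859 (log2 fold change 0.19, limma, adjusted p = 0.245). Prpf6 and Prpf3 had log2 fold changes of 0.11 each.

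Prpf8, the protein at the heart of the catalytic centre, measured 8895, 9912 and 9219.9 in the controls against 9096, 10704 and 10382 under the knockout label. The groups overlapped (log2 fold change 0.10, 95% interval -0.08 to 0.29). Prpf19, a ubiquitin ligase of the active spliceosome, measured 1603, 1778 and 1555 against 1651, 1781 and 1748 (log2 fold change 0.07). Prpf18, a factor of the second catalytic step, had the lowest value of the family, -0.13 (limma, adjusted p = 0.339). Prpf40b was among the least abundant members, at 17.8 to 49.1 normalized counts, and its interval of -0.45 to 1.09 was too wide to read. Prpf4, Prpf4b (a kinase of the spliceosome), Prpf38b and Prpf39 lay between -0.03 and 0.06.

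Of the SR protein genes, 6 of 11 had a positive log2 fold change and none stood above the controls in all 3 knockout-labelled libraries. Srsf3 measured 4336, 4649.8 and 4369 in the controls and 5670.4, 4374 and 5001 in the knockout-labelled libraries. Library 1 was high and library 2 lay within the controls (log2 fold change 0.16, SE 0.09; limma, adjusted p = 0.349). Srsf1, the founding member, was highest in knockout-labelled library 1 (7104) and in control-labelled library 2 (6602), with the other 4 libraries between 5241 and 5428 (log2 fold change 0.07, 95% interval -0.21 to 0.34). With the B cell marker level as a covariate, and also without knockout-labelled libraries 2 and 3, its log2 fold change was 0.33. Both fits rest mainly on knockout-labelled library 1, so they are not separate checks. Srsf2 measured 3568 ± 296 and 3559 ± 360.3 (SD, n = 3 each), with a log2 fold change of -0.01 (95% interval -0.21 to 0.20), and its sign turned with TMM factors (0.01) and quantile normalization (0.07). Srsf5 went the other way in control-labelled library 2, with 10286, 7295 and 9749.5 in the controls and 8530.1, 8448 and 8869 in the knockout-labelled libraries.

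Srsf4 was the only SR gene whose groups did not overlap. It measured 1084, 1088 and 1103 in the controls and 937, 1057 and 1015 in the knockout-labelled libraries (log2 fold change -0.12, SE 0.07; limma, adjusted p = 0.38). Srsf9 had a log2 fold change of -0.16 (limma, adjusted p = 0.386) with overlapping groups. Srsf6, Srsf7, Srsf10 and Srsf11 lay between 0.04 and 0.12. Srsf12 had 9 to 18 reads per library, too few to show a difference of the size discussed here.

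The hnRNP genes were divided evenly by sign, 10 of 20 positive, and each of the 20 intervals stayed within 1.5-fold. The smallest p belonged to Hnrnph2 (chromosome X, 134601179 to 134607060), whose product binds G-runs near splice sites. It measured 1614, 1682 and 1697 in the controls and 1915, 1836 and 1872 in the knockout-labelled libraries, all above the controls (log2 fold change 0.17, SE 0.06; limma, adjusted p = 0.158). Its relative Hnrnph3 (chromosome 10, 63014664 to 63024217) had the opposite sign, with 745, 528 and 651 in the controls and 525, 523 and 533 in the knockout-labelled libraries. Control-labelled library 2 sat at the knockout-labelled level, and the log2 fold change was -0.27 (SE 0.12; limma, adjusted p = 0.224). Hnrnph1 had a log2 fold change of -0.02. 

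Hnrnpr (chromosome 4, 136310942 to 136359447) measured 2410.1, 2271 and 2251 in the controls against 2178, 1971 and 2058 under the knockout label. The groups did not overlap (log2 fold change -0.16, SE 0.07; limma, adjusted p = 0.215). Hnrnpa0 and Hnrnpl were also lower without overlap, where 13.8% of all tested genes were, and with small differences (log2 fold changes -0.15 and -0.10; limma, adjusted p = 0.282 and 0.432). Of tested genes with a mean of at least 500, 20.1% were lower without overlap. Hnrnpl encodes hnRNP L, a repressor of the variable CD45 exons, and measured 8850.2, 8983 and 9241 against 8670.0, 8271 and 8381. Hnrnpll, which encodes the related hnRNP LL that drives exon skipping in CD45 in activated T cells, measured 1335, 1463 and 1446 against 1638, 1307 and 1196. Knockout-labelled library 1 was the highest and library 3 the lowest of the 6 (log2 fold change -0.05, 95% interval -0.29 to 0.20). Its log2 fold change was 0.21 when knockout-labelled libraries 2 and 3 were left out, and 0.21 with the B cell marker level as a covariate. Both values rest mainly on knockout-labelled library 1. The part of B cell transcripts in the value was not tested.

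The most abundant hnRNP genes had overlapping groups. Hnrnpa2b1, with the highest mean of all members, measured 15539, 17862 and 15813 in the controls and 18805, 15604 and 17606 in the knockout-labelled libraries. Hnrnpu, a nuclear matrix protein, measured 13243, 15572 and 13638 against 16009, 14471 and 14816, and Hnrnpk, a C-rich RNA binder, 10867, 12023 and 11039 against 13025, 11577 and 12108. In each, control-labelled library 2 and knockout-labelled library 1 were the high libraries of their groups. Hnrnpa1, a repressor of exon inclusion, measured 7142 ± 1001 and 7578 ± 349 (SD, n = 3 each), with a log2 fold change of 0.09 (95% interval -0.12 to 0.31). Hnrnpa3, Hnrnpab, Hnrnpc, Hnrnpd, Hnrnpdl, Hnrnpf, Hnrnpm, Hnrnpul1 and Hnrnpul2 lay between -0.07 and 0.14.

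The median member had a residual SD of 0.11 on the log2 scale between libraries of a group, against a median difference of 0.09 between the groups. Knockout-labelled library 1 held the highest value of 29 members (43.3%, against 19.8% of all tested genes), and control-labelled library 1 the lowest of 31 (46.3%, against 18.6%). Control-labelled library 2 lay above both other controls for 47 members (70.1%, against 38.8% of all tested genes) and below both for 13 (19.4%, against 38.8%). The median member stood 0.06 below, 0.09 above and 0.02 below the control mean in controls 1, 2 and 3. It stood 0.11, 0.02 and 0.06 above that mean under the knockout label. The median of all tested genes was within 0.01 of the control mean in each library. For the 11 Snrp genes the median deviation of control-labelled library 2 was 0.22, above the 0.09, 0.13 and 0.02 of the knockout-labelled libraries.

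**Figure D2:**
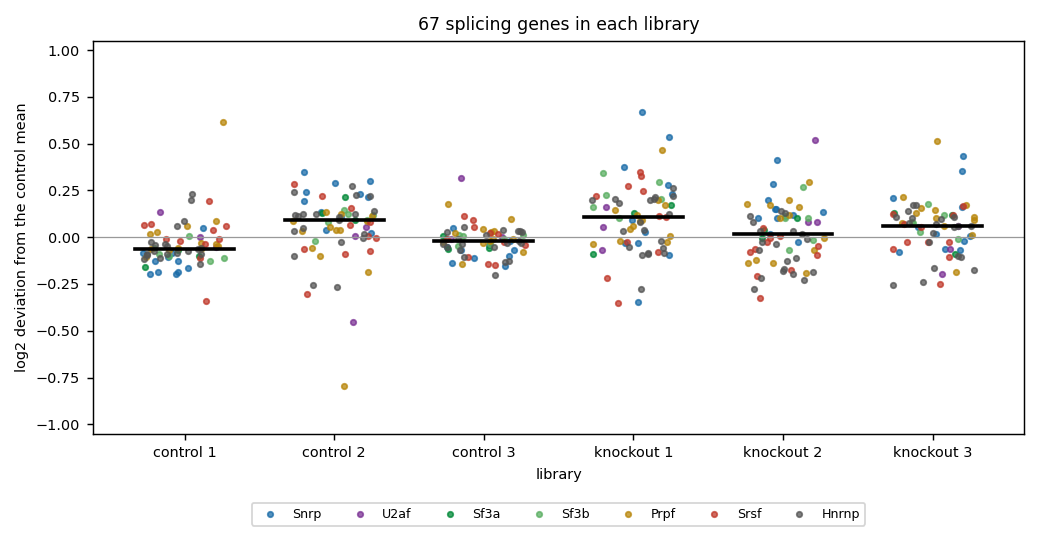
Log2 deviation of each of the 67 members from its mean over the controls (y axis) in each library (x axis), coloured by family, with a bar at the median. The medians of control 2 (0.09) and knockout 1 (0.11) are the highest of the 6.

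In all, the members took up 1.43%, 1.5% and 1.40% of all normalized counts in the controls, against 1.59%, 1.47% and 1.57% for the knockout-labelled libraries. Control-labelled library 2 lay above knockout-labelled library 2, so the groups overlapped. The 20 hnRNP genes accounted for 0.781 ± 0.0426% in the controls and 0.826 ± 0.0391% in the knockout-labelled libraries (SD, n = 3 each). The summed Sf3b genes took 0.157%, 0.159% and 0.156% against 0.185%, 0.166% and 0.175%, groups that did not overlap. The shares of the Prpf and U2af genes also lay higher without overlap, and those of the Hnrnp, Sf3a, Snrp and Srsf genes overlapped. As summed normalized counts, without division by the library total, the Sf3b and Prpf genes did not overlap between groups but the U2af genes did (6790 in control 2 and 6767 in knockout-labelled library 3). No background share was computed for sums of genes, and among single tested genes 25.7% did not overlap. The sums rest largely on abundant genes: Sf3b1, whose own groups overlapped, held 15728 of the 29281 Sf3b counts in control 1.

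Results for single members depended on control-labelled library 2. Without it, limma called 6 members, Snrpd1, Snrpb2, Snrpe, Prpf38a and Sf3a1 higher and Hnrnph3 lower. The same fit called 14.9% of all tested genes (7.68% higher and 7.21% lower), so that 8.96% of members is a smaller share. The log2 fold change of Snrpd1 was then 0.68 (SE 0.10, adjusted p = 0.00099), that of Snrpb2 0.42 (SE 0.08, adjusted p = 0.00521) and that of Hnrnph3 -0.40 (SE 0.09, adjusted p = 0.0126). Snrpe, Prpf38a and Sf3a1 passed narrowly, with log2 fold changes of 0.39, 0.34 and 0.23 and adjusted p of 0.0442, 0.0468 and 0.0463 (limma). In the 5 fits that left out another library, 0 members were called, but those fits called only 1.47% to 3.24% of all tested genes. Nothing in the labels sets control-labelled library 2 apart, and its depth of 19480791 reads lay within the range of the others. Over all genes it did stand apart from the other controls: the chi-square per degree of freedom between libraries was 19.4 and 18.9 against controls 1 and 3, which differed from each other by 5.36, and 13.3 to 16.2 against the knockout-labelled libraries.

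**Figure D3:**
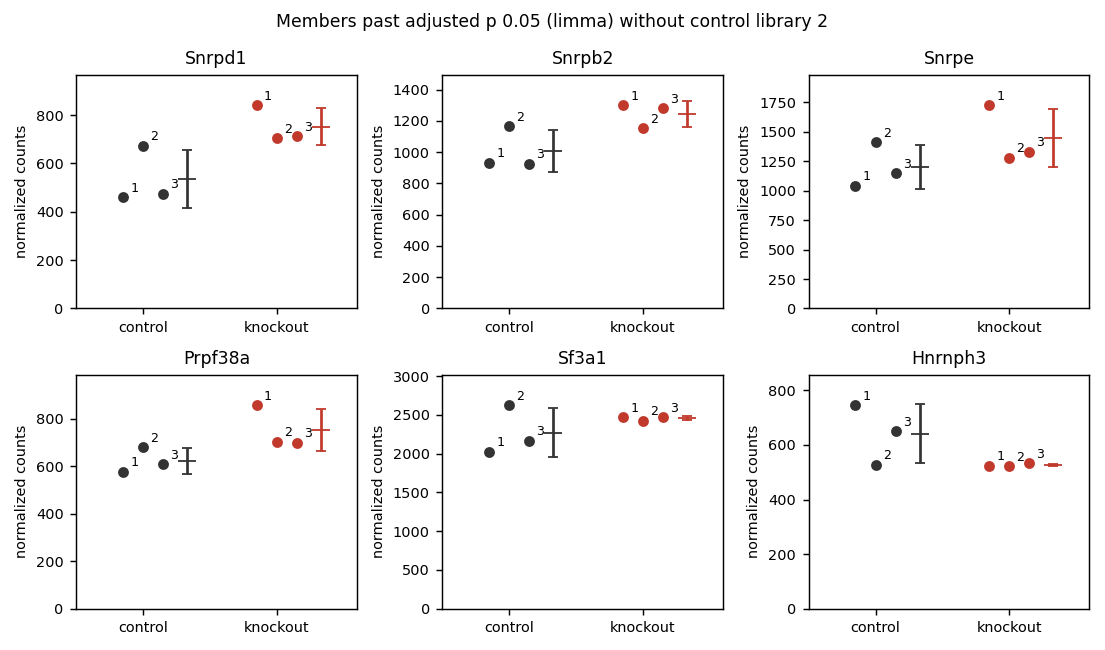
Normalized counts (y axis, from 0) in each control-labelled and knockout-labelled library (points, numbered by replicate) with the mean and SD of each group, for the 6 members called without control library 2. In each panel control 2 is the control nearest to the knockout-labelled libraries, or lies among or beyond them. The members were chosen by the fit without control 2, and that choice favours this placement.

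**Figure D4:**
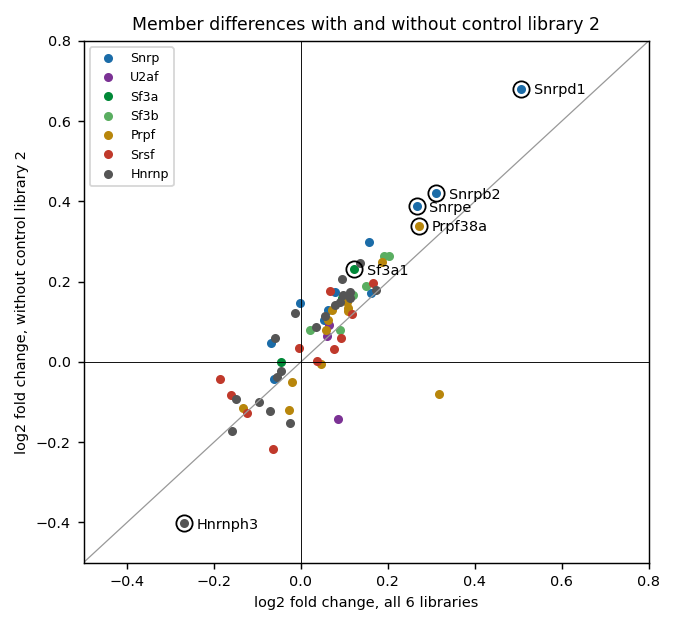
Log2 fold change of each member with all 6 libraries (x axis) and without control library 2 (y axis), coloured by family, with a line of equality and circles on the 6 members called without that library. Snrpd1 moves from 0.51 to 0.68 and Hnrnph3 from -0.27 to -0.40.

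Other genes of the splicing machinery gave a like picture. Of 125 genes in 5 lists, all of them in the table, 0 were called by limma or edgeR, 6 had an unadjusted p below 0.05 (4.8%, against 21.4% of all tested genes), and the median log2 fold change was 0.02. DESeq2 called 1, Srpk3. Of 8 kinases that phosphorylate SR proteins, 2 had a positive log2 fold change. Dyrk1a measured 2569, 2659.6 and 2773 in the controls and 2217, 2266 and 2409 in the knockout-labelled libraries, all below the controls (log2 fold change -0.22, SE 0.07; limma, adjusted p = 0.102). Srpk3 measured 8.18, 10.9 and 12.6 in the controls and 6.49, 60.5 and 54.6 in the knockout-labelled libraries. It was high in the same libraries as the median B cell marker and near the control level in knockout-labelled library 1. The part of B cell transcripts in it was not tested.

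Of 17 SR-related and exon junction genes, 11 had a positive log2 fold change. Magoh, a core protein of the exon junction complex, measured 732, 822 and 749 against 999, 842 and 908 (log2 fold change 0.25; limma, adjusted p = 0.135), and its partner Casc3 measured 2315, 2285 and 2442 against 2054, 2089.7 and 2137 (-0.16; limma, adjusted p = 0.175). Of 40 further snRNP and LSm genes, 28 were positive, and the smallest p was that of Smndc1, a spliceosome assembly factor, with 1576, 1511 and 1533 against 2013, 1724 and 1779 (log2 fold change 0.25, SE 0.08; limma, adjusted p = 0.0919). Snrnp25, of the minor spliceosome, measured 319 ± 49.2 and 409 ± 33.4 (SD, n = 3 each; log2 fold change 0.36; limma, adjusted p = 0.127). Of 29 other regulators, Rbm25 (0.19; limma, adjusted p = 0.249) and Sfpq (-0.17; limma, adjusted p = 0.257) had the smallest p. Of 31 genes of the Prp19 complex and the catalytic steps they were Smu1 (0.15) and Ppie (0.17). Without control-labelled library 2, where 7.68% of all tested genes were called higher and 7.21% lower, 5 of the 125 genes were called higher and 1 lower (Lsm2, Lsm6, Magoh, Ppil1, Snrnp25 and, lower, Clk2).

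Per kilobase of exonic length, the hnRNP genes were the most abundant members. The exonic length is the union of all annotated exons, retained introns included, and so understates genes with many such transcripts. In the controls Hnrnpa0 had 3522 ± 246 normalized counts per kilobase, Hnrnpf 3064 ± 236 and Hnrnpab 2694 ± 458 (SD, n = 3), each overlapping the next by its SD, and Srsf5 (2284), Snrpb (1960) and Sf3b1 (1375) led their families. The median hnRNP gene had 1241 per kilobase, the median SR gene 611, the median Snrp gene 517 and the median Prpf gene 226, against 97.2 for the median of 13632 tested genes. Of the 67 members, 64 were above that median and 29 above the 90th percentile of tested genes (707). Hnrnpll, at 121, had a level per kilobase far below that of Hnrnpl, at 1516.

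The exons of 18 members overlap those of another gene in the table, on the opposite strand for 17 of them, and whether reads were counted by strand is not given in the sources used here. Abundant partners include Plekhj1, which shares 429 bases with Sf3a2 and had a mean of 1799 normalized counts, Gucd1, which shares 232 with Snrpd3 (mean 1219, log2 fold change -0.37), and Mettl23, which shares 460 with Srsf2 (mean 1589). Others are Hnrnph3, which shares 115 bases with Rufy2 (mean 633), Prpf31, which shares 984 with Gm15927 (a gene at 28.9 normalized counts), and Srsf4, which shares 1532 with Gm12992 (at 23.3). U2af1l4 shares 1086 of its 1656 bases with Gm49396 on the same strand, so its value is uncertain. Hnrnpm also has a same-strand overlap, with 1169 of its 7956 bases shared with March2 (mean 1509).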

How the data were processed

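RNA sequencing libraries of sorted CD8+ T cells (3 control-labelled, 3 knockout-labelled) were analysed. The deposited signal is linear and is called normalized counts here. Judged from the values, the authors divided gene counts by 1 factor per library. Per the submitters' processing notes the build is mm10. Aligner, counter and annotation: not given in the sources used here. Dividing each column by its step gave whole reads for 100% of values (tolerance 0.01, against 1.43% to 1.76% before). For 2 of the columns (control 2, knockout 3) that step is close to 1. IDs were matched to GENCODE M21 (13653 of 13675).

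The groups were compared with limma 3.58.1 (R 4.3.3; variance trend, two-sided) on log2(normalized count + 1) for the 13654 genes with a mean of at least 10, adjusted over all of them. This scale understates fold changes of low genes. All 67 members passed this filter, and 1 of them enters the counts but is not reported here singly. Alternatives were other pseudocounts, filters, scalings and variance models, a replicate block, edgeR 4.0.16 and DESeq2 1.42.0 on the recovered reads, each library left out, and the B cell marker level as a covariate. The median B cell marker was raised only in knockout-labelled libraries 2 and 3. The covariate fit therefore rests mainly on knockout-labelled library 1, like the fit without those libraries. The procedure was first tested on simulated data. Every pair of libraries differed by more than sampling noise (lowest chi-square over its degrees of freedom, 5.36).

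The members, the lists and the alternatives were chosen with earlier results of these data known. Named were called members, the 3 smallest p and the extreme levels of each family, 14 genes fixed for their roles (of which Snrpn was not analysed here), and the 2 smallest p of each other list. Snrpd2 and Srpk3, the other members outside this rule and the genes of the other lists called without control-labelled library 2 were named after their values were seen.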

Additional observations from a re-analysis of the deposited data

How the results depend on the processing

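Of 37 named members under 18 alternatives, 632 of 663 values kept their sign and their side of the threshold, 24 turned sign, in 8 genes, and 7 passed the threshold. Of all 67 members, 43 kept 1 sign under every alternative and 24 did not. No member was called under any alternative but DESeq2 (1 higher, with 1 higher in the other splicing lists) and the fit without control-labelled library 2 (5 higher and 1 lower; in the other lists also 5 and 1). With 1 library left out, members called higher ranged from 0 to 5 and lower from 0 to 1, as did the other lists, and all called genes from 200 to 2028. In the other lists 1 gene, Srpk3, was called higher without knockout-labelled library 1. All called genes, 708 in the reported fit, numbered 141 without a variance trend, 197 with a replicate block, 129 with the B cell covariate and 0 without knockout-labelled libraries 2 and 3, a fit with a lone knockout-labelled library that is assumed to vary like the controls (at an unadjusted p below 0.05, 13.8% of all tested genes and 9 members).

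Sign turned mainly for members near 0. Srsf2 was 0.0070 with TMM factors, 0.066 with quantile normalization, 0.0094 with edgeR, 0.11 without knockout-labelled libraries 2 and 3, 0.10 with the B cell covariate, and -0.076 to 0.080 with 1 library left out. Srsf5 was 0.015 with quantile normalization and -0.22 to 0.030 with 1 library left out. U2af1l4 was -0.026 with quantile normalization, -0.066 without knockout-labelled libraries 2 and 3, -0.11 with the covariate and -0.14 to 0.24 with 1 library left out. Hnrnpll was 0.21 without knockout-labelled libraries 2 and 3, 0.21 with the covariate and -0.18 to 0.050 with 1 left out. Prpf8 was -0.037 without those libraries and -0.019 with the covariate. With 1 library left out, Sf3b4 was -0.042 to 0.080, Srsf1 -0.064 to 0.18 (0.33 with the covariate and 0.33 without knockout-labelled libraries 2 and 3) and Prpf40b -0.079 to 0.63. The causes were not tested.

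Replicate numbers were not treated as pairs in the reported fit. Same-numbered deviations correlated at -0.54, -0.27 and -0.23. As deviations from a group mean sum to 0 within the group, these correlations cannot decide whether libraries were paired. The replicate block called 0 members and 1.44% of all tested genes. Members with few reads (9 to 18 for Srsf12) are limited by depth. The other low members are Prpf40b and U2af1l4.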
